A study of Anas platyrhynchos with 2 samples.

Results

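Genes on unplaced contigs are those whose first exon in the count table lies on a sequence with a name beginning "ptg", which is a stretch of the assembly that was not joined to a chromosome. There were 203 such genes on 33 contigs, out of 11383 genes in the table, and the other 11180 lay on chromosomes 1 to 39, Z and W. The data are RNA-seq read counts from domestic ducks (*Anas platyrhynchos*) of the Fujian Longyan Shan-ma breed, in 2 libraries without replicates. Library B is labelled with skin, muscle, eye, brain, ovary, kidney, spleen, heart and lung, and library A with pancreas, liver, intestine, stomach and blood. Both were prepared from total RNA with a SMARTER mRNA-Seq kit. The series text speaks of an adult female and an adult male as donors, with RNA of all tissues pooled, while the labels name no sex and no testis, so values are given by library and not by organ or donor. No source says whether the 2 libraries come from the same or different birds. The gene IDs carry no symbols and matched 0 of 26024 duck genes in a RefSeq table, so the labelled tissues could not be checked against marker genes, and no gene is given a name or role. No genome sequence of this assembly was used, so similarity between genes was judged from exon and intron lengths alone.

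An assembly is built by overlapping long reads into contigs, which are then ordered along chromosomes. Contigs that stay unplaced typically come from repeats, from recently duplicated segments, from tiny GC-rich chromosomes, or from places where the maternal and paternal copies of a region differ enough to be assembled separately. Bird genomes hold many small chromosomes, called microchromosomes, that are rich in genes with short introns. The lengths of inner exons are usually kept between copies of a gene because a change in length can shift the reading frame, whereas intron lengths and the outer ends of the first and last exon drift more freely. A gene that shares all its inner exon lengths with another is therefore a candidate relative of it, and alike introns narrow that to close relatives.

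The genes were spread unevenly over the contigs. Contig ptg000046l held 37 genes, ptg000064l held 25, ptg000120l held 16, ptg000091l and ptg000092l held 11 each, and ptg000113l held 10. These 6 contigs carried 110 of the 203 genes (54.2%). A further 9 contigs had 5 to 9 genes, 9 had 2 to 4, and 9 had a single gene. Lengths of the contigs are not in the files, and the last annotated base of a gene lay between 12.7 kb and 1097 kb from the contig start, with a median of 104 kb over the 33 contigs. On ptg000147l the only gene began at base 1, and 5 genes in all began in the first 1 kb of their contig. Neighbouring genes on a contig were separated by a median of 2.08 kb over 170 pairs (interquartile range 0.689 to 14.1 kb), against 4.47 kb on autosomes under 10 Mb and 12.3 kb over all placed genes. Contig genes thus lay closer together than placed genes. The IDs run in steps of 10, and the table held 57.0% of the 356 numbers up to the highest contig ID, so genes under the other numbers are not described here.

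Contig genes had short last exons and somewhat shorter first exons, while their inner exons were of ordinary length. Among the 186 contig genes with at least 4 exons, the last exon had a median of 308 bp (interquartile range 196 to 678 bp). It was 819 bp in 1332 genes of autosomes under 10 Mb, and 1488 bp in 9688 placed genes. A last exon of at least 1 kb was found in 29 of 186 contig genes (15.6%), in 43.0% of genes on autosomes under 10 Mb and in 63.3% of placed genes. The exons before the last summed to a median of 1364 bp in contig genes, 1357 bp on autosomes under 10 Mb and 1552 bp in placed genes. The median inner exon was 124 bp, 125 bp and 126 bp in these groups when taken over genes with at least 4 exons. The first exon had a median of 141 bp in contig genes, 176 bp on autosomes under 10 Mb and 192 bp in placed genes. The last exon usually carries most of the 3′ untranslated region, and where the annotation ends it was not checked against reads. Chromosome 30, with 29 such genes, also had a short median last exon, of 322 bp, and 20.7% of its genes had one of at least 1 kb. Over all exons, contig genes had a median of 1785 bp against 3292 bp in placed genes, with medians of 10 and 9 exons per gene. They ranged from a gene of 389 bp on ptg000091l to one of 9129 bp on ptg000092l, and 2 genes had a single exon.

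**Figure D1:**
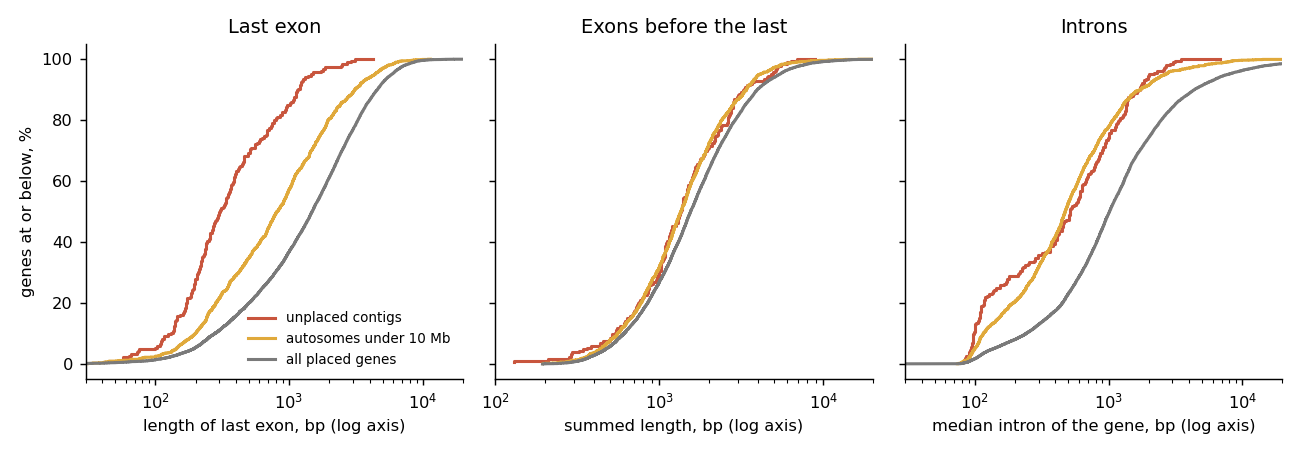
Cumulative share of genes (%) by length of the last exon, summed length of the exons before it, and median intron of the gene (bp, log axes), for genes on unplaced contigs, on autosomes under 10 Mb and for all placed genes, which include the autosomes under 10 Mb. The contig curve lies far to the left for the last exon, with a median of 308 bp against 1488 bp in placed genes, and close to that of the small autosomes for the earlier exons.

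Introns of contig genes were short and varied widely. The median intron of a gene was 518 bp over genes with at least 2 exons (interquartile range 154 to 1009 bp), against 474 bp on autosomes under 10 Mb and 1017 bp in placed genes. In 57 contig genes (28.1%) the median intron was under 200 bp, against 20.05% of genes on autosomes under 10 Mb and 7.89% of placed genes. The contigs differed in this. On ptg000120l 10 of 16 genes had a median intron under 200 bp, on ptg000091l 7 of 11, on ptg000075l 5 of 7 and on ptg000064l 10 of 25. None of the 11 genes of ptg000092l, the 8 of ptg000045l, the 8 of ptg000090l or the 6 of ptg000093l did. The longest contig gene spanned 59.3 kb, against 1148 kb in placed genes. The gene with the most exons, 67 of them, lay on ptg000046l at 221990 to 239302 on the assembly of the study. It had 4.40 RPKM in library B and 3.49 RPKM in library A, where RPKM is the read count scaled to exon length and to the reads of the library.

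Detection of contig genes was like that of the table as a whole. At least 10 reads in at least 1 library were counted for 199 of 203 contig genes and for 11057 of 11180 placed genes. The other 4 contig genes had 0 to 5 reads in library B and 0 to 6 in library A. Of these, the gene of 3 exons on ptg000129l at 2177 to 5370 had no read in either library, which allows up to 3 reads, or 0.0715 CPM (counts scaled to library size) in library B and 0.15 CPM in library A. The only gene of ptg000060l_5, with 7 exons, had 0 reads in library B and 1 in library A. Contig genes held 439818 reads in library B and 193657 in library A.

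The level of contig genes was close to that of placed genes. The median was 9.82 RPKM as the mean of both libraries (interquartile range 4.71 to 20.6), against 9.40 RPKM for placed genes (3.68 to 22.7) and 10.2 RPKM on autosomes under 10 Mb. By library, the contig median was 10.5 RPKM in library B and 9.33 RPKM in library A, and that of placed genes was 9.41 and 9.39 RPKM. At least 100 RPKM was reached by 10 contig genes (4.93%) and by 5.71% of placed genes, and 6.40% and 6.56% were under 1 RPKM. Short genes differed more. Among genes with under 1500 bp of exon the median was 11.1 RPKM for 70 contig genes and 19.2 RPKM for 1623 placed genes, with 15.7 RPKM on autosomes under 10 Mb. Among genes with at least 5000 bp it was 8.83 RPKM for 15 contig genes and 6.81 RPKM for 3014 placed genes. In between, the medians were 9.26 RPKM for contig genes and 12.5 RPKM for placed genes at 1500 to 3000 bp, and 9.10 and 9.08 RPKM at 3000 to 5000 bp. The contig median was thus lower than that of placed genes below 3000 bp, close to it at 3000 to 5000 bp and higher above that. On autosomes under 10 Mb the medians were 10.2 RPKM at 1500 to 3000 bp, 9.98 RPKM at 3000 to 5000 bp and 7.53 RPKM from 5000 bp. They too were below those of placed genes under 3000 bp and above them from 5000 bp, so this pattern was not particular to contig genes. How the short last exons and uncounted multi-mapping reads bear on these levels was not tested.

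Median levels differed widely between contigs, with a wider range among those that held few genes. A median over few genes scatters more than one over many, so the wider range says little about the contigs themselves. Median levels over the genes of a contig ran from 6.32 to 14.2 RPKM on the 6 contigs with at least 10 genes. They were 14.2 RPKM on ptg000064l, 12.7 on ptg000092l, 12.1 on ptg000091l, 10.97 on ptg000120l, 8.81 on ptg000046l and 6.32 on ptg000113l. On the 9 contigs with 5 to 9 genes the medians ran from 3.79 RPKM on ptg000129l to 36.3 RPKM on ptg000122l. Among contigs with 2 to 4 genes they ran from 0.916 RPKM on ptg000146l to 102 RPKM on ptg000119l. In all, 16 contigs had a median of at least 10 RPKM and 5 had one under 2 RPKM. The 5 were ptg000146l, ptg000072l, ptg000002l_6, ptg000060l_3 and ptg000060l_5, with 8 genes among them.

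**Figure D2:**
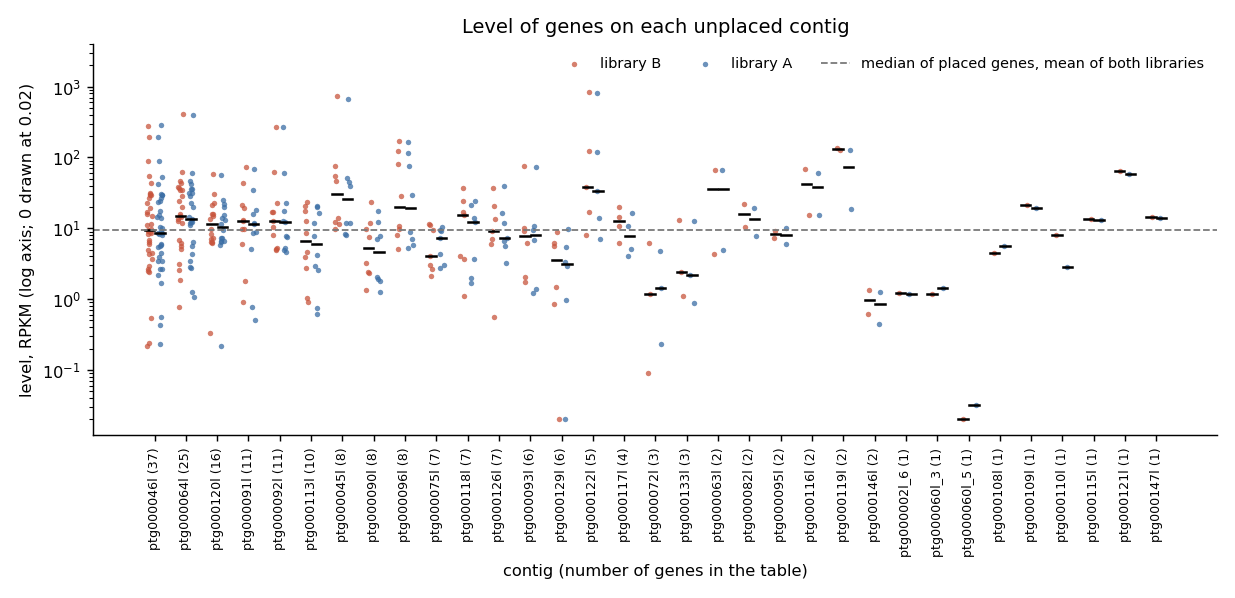
Level (RPKM, log axis) of each gene on each of the 33 unplaced contigs, ordered by number of genes, in library B (red, left) and library A (blue, right), with black bars at the contig medians and a dashed line at the median of placed genes, 9.40 RPKM. Contigs with at least 10 genes have medians near the line, and those with 1 or 2 genes have medians from 0.0158 to 102 RPKM as the mean of both libraries. Medians over 1 or 2 genes scatter more than those over many.

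A few genes carried much of the signal. The highest was a gene of 6 exons and 710 bp on ptg000122l at 186161 to 188589 (minus strand). It had 831 RPKM in library B and 816 RPKM in library A, rank 70 in the whole table. Next came a gene of 4 exons on ptg000045l at 287933 to 295605, with 730 RPKM in library B and 677 RPKM in library A. A gene of 9 exons on ptg000064l at 274063 to 277208 had 404 and 394 RPKM in libraries B and A. The fourth, with 5 exons on ptg000046l at 172715 to 174708, had 276 and 283 RPKM. The fifth, with 4 exons on ptg000092l at 220421 to 223536, had 266 and 272 RPKM. These 5 genes held 21.8% of the reads of contig genes in library B and 22.8% in library A. The top 20 held 48.6% and 49.2%. None of the 5 matched another gene in its inner exon lengths, and their ratio of library B over library A lay between 0.976 and 1.08. On the other contigs with at least 10 genes the highest gene was at a lower level. It had 59.0 RPKM in library B and 56.9 RPKM in library A on ptg000120l at 180479 to 185952. It had 72.9 and 68.3 RPKM on ptg000091l at 174080 to 178976, and 23.1 and 20.01 RPKM on ptg000113l at 7958 to 13409.

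Structural relatives were looked for by comparing the ordered lengths of inner exons, with the first and last exon left out, in genes of at least 4 exons. Of 186 contig genes, 35 (18.8%, Clopper-Pearson 95% interval 13.5 to 25.2) had the same inner exon lengths as some other counted gene. A gene placed on a chromosome was the partner of 15 (8.06%, 4.58 to 12.95), and another contig gene was the partner of 22 (11.8%, 7.56 to 17.4), with 2 genes having both. These 22 formed 11 pairs, some of them neighbours on the same contigs. Such genes are not independent draws, so the intervals are too narrow. As background, 428 of 9688 placed genes (4.42%) shared their inner exon lengths with another placed gene. On autosomes under 10 Mb that share was 7.51%, near the 8.06% of contig genes with a placed partner. Matches between contig genes included long ones. Of the 60 contig genes with at least 13 exons, 8 had a partner, each on another contig, against 1.49% of the 3825 placed genes of that size that had a placed partner. The 8 were partners of one another, and for placed partners the count was 0 of 60 contig genes. Contig partners and placed partners are different searches, so the 2 shares do not measure the same thing. No partner lay on the same contig as its gene. In all 21 contigs held a gene with a partner and 12 held none, among them ptg000064l with 25 genes and ptg000120l with 16.

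The placed partners lay on 11 chromosomes, and chromosome 30 held the most. It had partners of 6 contig genes, which were 6 different genes out of its 29 with at least 4 exons (20.7%, Clopper-Pearson 95% interval 7.99 to 39.7). Chromosome 37 held partners of 2 contig genes (2 of its 23 such genes). Chromosome 12 also held partners of 2 contig genes, but through 1 gene of its own. Chromosomes 1, 8, 9, 17, 18, 27, 28 and 38 held partners of 1 contig gene each. None lay on Z or W, and none on chromosomes 2 to 7. These places depend on the rule that all inner exon lengths match. When a run of 5 equal inner exon lengths sufficed, chromosome 8 held partners of 9 contig genes and chromosome 30 of 8. Chromosome 8 is larger, with 326 genes of at least 4 exons. Under that looser rule chromosomes 2, 3 and 4 held partners of 3 contig genes each, and Z of 2. The 6 genes on chromosome 30 lay within 588 kb, from 6666366 to 7254070, close to the last gene of that chromosome in the table, which ended at 7271031. Lying so close together, they are not independent draws, and the interval for chromosome 30 is too narrow.

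The matches to chromosome 30 came from 4 contigs, whose partners followed one another without interleaving. On ptg000090l the genes starting at 58368 and 110951, which have 11 and 12 exons, matched genes starting at 6666366 and 6718090. The starts were 52.6 kb apart on the contig and 51.7 kb on the chromosome. On ptg000095l the gene of 11 exons at 7362 to 17633 matched one at 6973928 to 6982717, on the opposite strand. On ptg000119l the gene at 28144 to 31881 matched one at 7098453 to 7102214. On ptg000129l the genes starting at 17412 and 102543, with 4 and 9 exons, matched genes starting at 7160410 and 7249308. These were 85.1 kb apart on the contig and 88.9 kb on the chromosome. In 5 of the 6 matches at least 2 introns also had exactly the same length, and in the match with 4 exons all 3 introns were within 10% of each other. On ptg000090l and ptg000129l the order and the distance of the 2 matched genes were therefore alike on the contig and the chromosome. With 2 genes only 2 orders are possible, and other genes of the same stretches had no partner under this rule. A single match each, on ptg000095l and ptg000119l, shows neither order nor distance. When a run of 3 equal inner exon lengths sufficed, 2 genes of ptg000119l had a partner on chromosome 30, and their order is not described here.

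Matches between contigs included larger sets of genes in the same order, though genes without a full match lay among them. Contigs ptg000113l and ptg000118l shared 4 genes in the same order and on the same strands, over 95.9 kb on ptg000113l and 95.6 kb on ptg000118l. The distances between successive starts were 19.3, 30.8 and 43.3 kb on ptg000113l, and 19.96, 30.3 and 43.0 kb on ptg000118l. Contigs ptg000117l and ptg000126l shared 3 genes in the same order and on the same strands, over 86.8 kb on ptg000117l and 86.5 kb on ptg000126l. Not every gene in these stretches was matched in all its inner exon lengths. The stretches held 8 counted genes on ptg000113l and 6 on ptg000118l, and 4 on ptg000117l and 6 on ptg000126l, with the matched ones included. When a run of 3 equal inner exon lengths sufficed, 7 genes of ptg000113l and 7 of ptg000118l had a partner on the other contig. Between ptg000117l and ptg000126l it was 3 on each. Runs of 3 are a weaker sign, since they were frequent among placed genes too. Single full matches joined ptg000108l with ptg000110l, ptg000082l with ptg000092l, ptg000109l with ptg000147l, and ptg000045l with ptg000093l. By runs of 3, 2 genes of ptg000082l and 2 of ptg000092l had a partner on the other contig. The 2 contigs of each pair are different sequences in the assembly, and whether they are alternative copies of 1 region or separate regions was not tested.

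**Figure D3:**
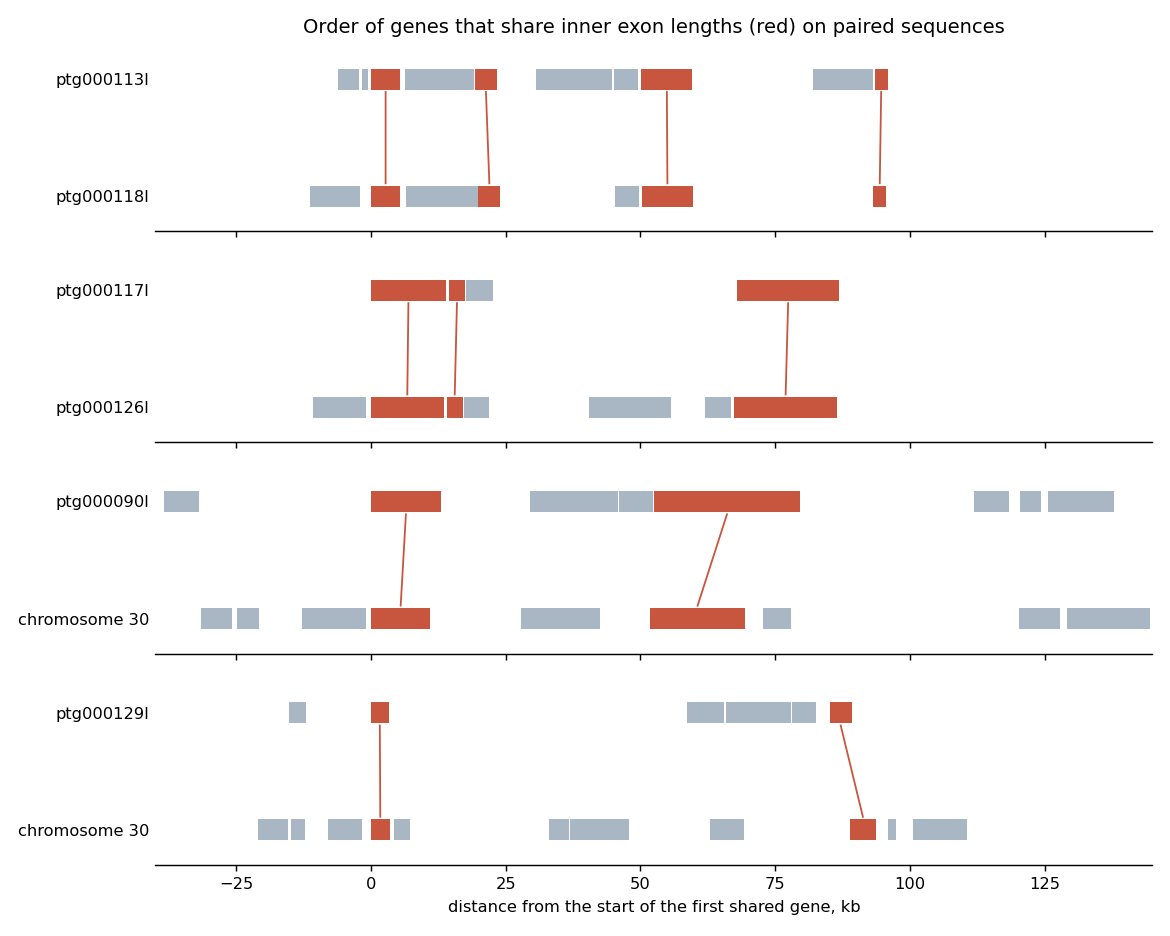
Genes (boxes) on 2 pairs of contigs and on 2 contigs set against chromosome 30, by distance (kb) from the start of the first gene of each stretch that shares its inner exon lengths. Genes with a partner in the facing sequence are red and joined by lines, and distances between them are alike, for example 52.6 kb on ptg000090l and 51.7 kb on chromosome 30.

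Intron lengths were used to sort the matches into close and loose ones. A pair was called intron-alike where at least 50% of its introns differed by no more than 10%, a rule chosen after the values were seen. Of the 11 pairs of contig genes, 9 were intron-alike, and of the 19 pairs of a contig gene with a placed gene 6 were. In the 9 pairs 70 of 91 introns were within 10% and 26 had exactly the same length. In the 13 loose pairs with placed genes 13 of 99 introns were within 10%. Most of these lay in the loose pairs with chromosome 30, which had 4 of 10, 3 of 11 and 4 of 10 introns within 10%. In them 2, 3 and 3 introns had exactly the same length, whereas no intron did in loose pairs with other chromosomes. The rule thus counted as loose some pairs that share exact intron lengths. Among pairs with placed genes, those with the most inner exons were loose. Over all pairs the most inner exons, 15, were shared by intron-alike genes of ptg000117l and ptg000126l. The gene of 12 exons on ptg000046l at 11239 to 20892 shared its 10 inner exon lengths with 2 genes of chromosome 8, at 35975214 to 36027335 and 36989000 to 37041587. It spanned 9.65 kb, whereas these spanned 52.1 and 52.6 kb, and 0 of 11 introns were alike. Equally, the genes of 11 exons on ptg000117l and ptg000126l, which were partners of each other, both matched a gene of chromosome 12 at 10964097 to 11004460. They spanned 18.8 and 19.2 kb and the gene of chromosome 12 spanned 40.4 kb.

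Mean levels were alike in most close pairs of contig genes and unlike in many pairs with placed genes. Over the 9 intron-alike contig pairs the means of both libraries differed by a median of 1.06-fold, and by 1.01-fold to 1.81-fold. Within a library some pairs were further apart. On ptg000117l and ptg000126l the genes with 17 exons had 14.3 and 13.4 RPKM in library B, and 10.7 and 11.7 RPKM in library A. The genes with 8 exons had 6.13 and 6.08 RPKM in library B, and 5.10 and 5.54 RPKM in library A. The genes with 11 exons had 20.2 and 20.4 RPKM in library B, and 16.3 RPKM each in library A. The 3 pairs were thus nearly equal in both libraries. On ptg000113l and ptg000118l the genes with 10 exons had 23.1 and 24.3 RPKM in library B, and 20.01 and 21.5 RPKM in library A. The genes with 5 exons were less alike, with 20.3 RPKM on ptg000113l and 36.8 RPKM on ptg000118l in library B, and 20.3 and 24.01 RPKM in library A. The genes with 9 exons were the least alike in mean level, with 0.924 and 1.11 RPKM in library B, and 0.617 and 1.67 RPKM in library A, where the gene on ptg000118l was 2.71-fold higher on 38 against 14 reads. The genes of ptg000110l and ptg000108l, alike in mean level, had 8.10 and 4.502 RPKM in library B, and 2.86 and 5.68 RPKM in library A.

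Among the 19 pairs with a placed gene, 11 differed by at least 2-fold in level and 5 by less than 1.5-fold. Of the 6 intron-alike ones, 3 differed by at least 2-fold and 2 by less than 1.5-fold, and of the 13 loose ones 8 and 3 did. The 6 include 2 pairs of the gene of ptg000060l_5, which had 0 reads in library B and 1 in library A. Its 27.5-fold difference to chromosome 17 rests on that read, and its partner on chromosome 38 had no reads, so no ratio was defined. The gene on ptg000046l with partners on chromosome 8 had 26.7 RPKM in library B and 24.4 RPKM in library A. Its partners had 0.640 and 0.733 RPKM in library B, and 0.585 and 0.645 RPKM in library A. In the other direction, a gene of 6 exons on ptg000046l at 208283 to 221600 had 4.95 and 4.53 RPKM in libraries B and A. Its partner on chromosome 18 had 64.6 and 64.7 RPKM. The gene of 12 exons on ptg000090l had 9.77 RPKM in library B and 7.89 RPKM in library A, and its partner on chromosome 30 had 6.51 and 4.71 RPKM. The genes of 11 exons matched to chromosome 12 had 16.3 to 20.4 RPKM over both libraries, and their partner there 1.87 RPKM in library B and 1.26 RPKM in library A. The other matches with 9 inner exons, both with chromosome 30, were closer in level than those with chromosome 12. The gene of 11 exons on ptg000090l had 11.8 and 12.2 RPKM in libraries B and A, and its partner 22.6 and 23.4 RPKM. The gene on ptg000095l had 7.27 and 5.95 RPKM, and its partner 7.86 and 6.58 RPKM. Reads that map to more than 1 place were not counted, so levels of genes with near-identical sequence may be too low, and sequence was not compared.

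**Figure D4:**
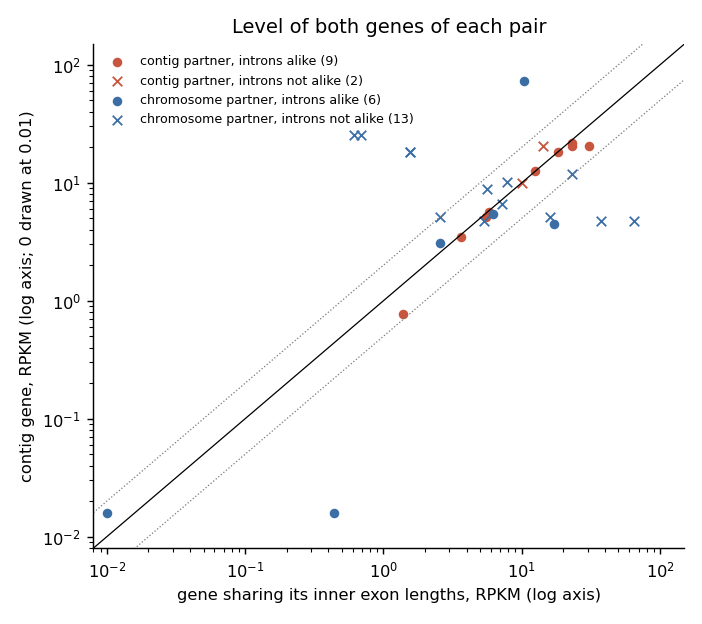
Level of each contig gene (vertical, RPKM, log axis) against that of the gene sharing its inner exon lengths (horizontal, RPKM, log axis), as means of both libraries, for 11 pairs of contig genes (red) and 19 pairs with placed genes (blue). Intron-alike pairs are filled circles and other pairs crosses. The solid line marks equal levels and the dotted lines a 2-fold difference, within which all 11 contig pairs lie.

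The labels set the organs of library B against those of library A, and most contig genes were slightly higher in library B. On the log2 scale, the ratio of library B to library A had a median of 0.11 over the 199 contig genes tested (interquartile range 0.02 to 0.26), against -0.00066 over all 11256 genes tested. It was above 0 for 158 of 199 contig genes (79.4%), against 49.8% of all genes tested and 62.4% of those on autosomes under 10 Mb. Chromosome 30 had a higher median than contig genes, of 0.19 over 39 genes tested, with 71.8% above 0. With a single library per label there is no replicate error to set these differences against, and no test is given. In such mixed samples, fewer cells of a type and less RNA per cell cannot be told apart.

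The direction of the shift was the same on most contigs. Reads pooled over a contig gave a ratio above 1 on 29 of 33 contigs. The 95% interval from read pairs, which covers counting error only, lay above 1 on 20 contigs and below 1 on 1, ptg000108l. No like count was made for stretches of placed genes. Pooled reads can rest on a single gene, and 9 contigs had only 1. The highest gene held 98.6% of the reads of ptg000063l and 88.4% of those of ptg000093l in library B. On the contigs with at least 10 genes the pooled ratio ran from 1.04 on ptg000046l to 1.17 on ptg000091l. Pooled ratios were 1.26 on ptg000119l, where a single gene with a large ratio contributed, and 1.34 (1.23 to 1.46) on ptg000117l. Within every class of intron length the contig median was above that of placed genes. For median introns under 200 bp it was 0.10 over 56 contig genes and 0.06 over 867 placed genes. For introns of 1000 to 2000 bp it was 0.13 over 39 contig genes and -0.01 over 2745 placed genes. On autosomes under 10 Mb it was 0.08 over 316 genes with introns under 200 bp, near the contig value. At 1000 to 2000 bp it was 0.03 there, over 213 genes. Contig genes with a structural partner had a median of 0.19 (34 genes) and those with none, or with too few exons to compare, 0.11 (165 genes). Base composition could not be read without sequence, and its part in the shift was not tested.

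Wide differences between the libraries were more frequent among contig genes than over the whole table. At least 2-fold higher in library B were 5 of 199 contig genes (2.51%), against 0.489% of all genes tested. At least 2-fold higher in library A were 3 contig genes (1.51%), against 0.267% of all genes tested. Together they were 8 genes (4.02%), against 0.755%. At 4-fold, library B was higher for 1 contig gene and library A for 2, against 0.0888% and 0.0444% of all genes tested. Contig genes had fewer reads than others, with medians of 884 reads in library B and 370 in library A, against 1508 and 714 for placed genes, and ratios of genes with few reads scatter more. Where the higher library had at least 100 reads, 4 of 185 contig genes (2.16%) were 2-fold higher in library B, against 0.113% of all 10654 such genes. In library A 2 contig genes (1.08%) were, against 0.0469%. Contigs thus held 6 of the 17 genes in the table with that many reads and that wide a ratio. Of the 8 contig genes past 2-fold, 4 had a structural partner, as had 34 of the 199 tested. The rule asks for exact inner exon lengths and can miss relatives. One gene counted without a partner, on ptg000117l at 27742 to 32841, had 4 exons, 939 bp and a ratio of 2.60. A gene on ptg000126l at 28552 to 33328 had 4 exons, 954 bp and a ratio of 1.23. Both had a median intron of 1348 bp, and whether they are relatives was not tested. Placed genes with a partner were also past 2-fold more often, at 11 of 410 tested (2.68%). Among the 10647 placed genes with none, or with too few exons to compare, 0.62% were. The excess among placed genes lay on the side of library A, with 9 of the 11 genes (2.20% against 0.17%). The other 2 favoured library B, at a share near that of genes with none (0.49% against 0.45%). The 4 contig genes with a partner had 2 on each side. These counts are a description, since several of the contig genes were already known for their ratios.

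**Figure D5:**
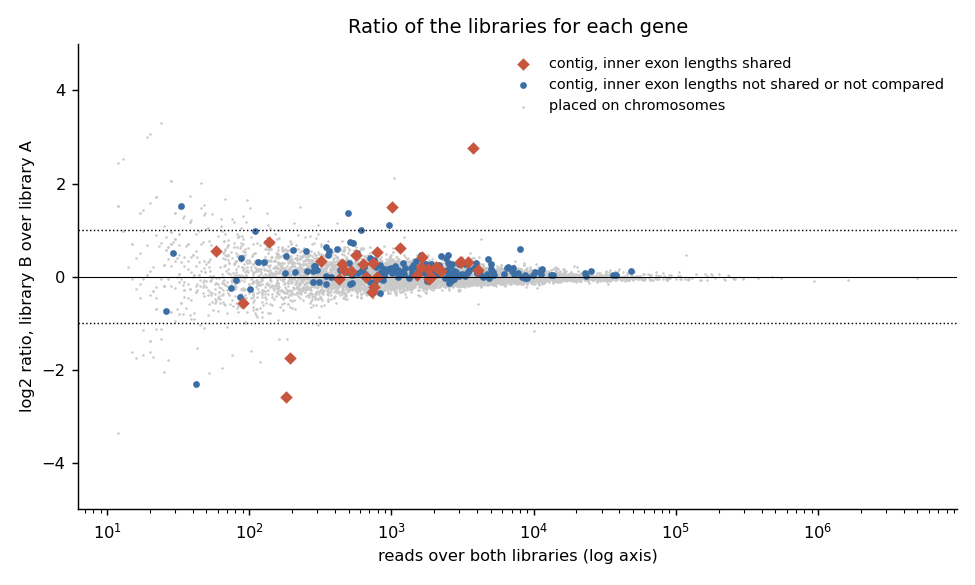
Library B over library A on the log2 scale (vertical) against reads over both libraries (horizontal, log axis) for every gene tested, with contig genes that share their inner exon lengths as red diamonds, other contig genes as blue dots and placed genes in grey. Dotted lines mark 2-fold differences, beyond which lie 5 contig genes on the side of library B and 3 on that of library A.

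Of the 4 contig genes that lay past 2-fold and had a structural partner, 3 had no partner past 2-fold in the same direction. Apl_U0002810, on ptg000119l at 28144 to 31881, had 3471 reads in library B and 243 in library A. That is 128 RPKM in library B and 18.8 RPKM in library A, a ratio of 6.81 (5.68 to 8.28 from read pairs). Its intron-alike partner on chromosome 30 had 153 reads in library B and 151 in library A. Library A was 2.07-fold higher for it (1.49 to 2.89). Summed over both genes the ratio was 4.38. The other gene of ptg000119l, with 21 exons, had 137 RPKM in library B and 126 RPKM in library A, so the contig as a whole did not show the wide ratio.

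Apl_U0002320, the single gene of ptg000110l, with 14 exons, had 869 reads in library B and 146 in library A, a ratio of 2.84 (2.21 to 3.68). Its partner on ptg000108l had 459 reads in library B and 276 in library A. It lay on the other side, 1.26-fold higher in library A. In mean level the 2 genes were alike, at 5.48 RPKM on ptg000110l and 5.09 RPKM on ptg000108l. Their summed reads gave a ratio of 1.499.

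Apl_U0003370, on ptg000129l at 102543 to 106604, had 45 reads in library B and 136 in library A. Library A was 6.34-fold higher for it (3.96 to 11.02 from read pairs). Its partner on chromosome 30, with 8 of 8 introns within 10%, had 226 reads in library B and 92 in library A, a ratio of 1.17 (0.824 to 1.69). Summed over both genes the ratio was 0.566. Another gene of the same contig, with 21 exons at 83306 to 95390, lay past 2-fold in the other direction, with 790 reads in library B and 175 in library A.

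Apl_U0001450, on ptg000075l at 123531 to 133767, differed from these in that one of its partners moved with it. It had 73 reads in library B and 120 in library A. Library A was 3.45-fold higher for it (2.28 to 5.44). Its partner on chromosome 37 at 5482087 to 5493601 had 82 reads in library B and 101 in library A. Library A was 2.59-fold higher for it (1.66 to 3.97). A second partner, on chromosome 9, had 1509 reads in library B and 770 in library A, a ratio of 0.934 (0.824 to 1.06). None of the 4 introns of either partner was within 10% of its own.

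Over the 13 intron-alike pairs in which both genes had at least 50 reads over the 2 libraries, the log2 ratios of the 2 genes differed by a median of 0.46 and by at least 1 in 4 pairs. Of the 4 pairs 3 are given above, and the other joined the genes with 9 exons on ptg000113l and ptg000118l, with 44 and 53 reads in library B and 14 and 38 in library A. Over the 15 loose pairs, which include those with chromosome 30 that share exact intron lengths, the median difference was 0.16, and 1 pair reached 1. Some genes entered more than 1 loose pair, so these pairs are not independent. Reads also differed widely between pairs, so the 2 medians are not compared at equal depth. The paired genes on ptg000117l and ptg000126l with 11 exons were the closest of the intron-alike ones, with 2212 and 2211 reads in library B and 848 and 843 in library A. How reads were divided between the genes of a pair by the aligner, and whether differences between donors in the copies they carry contributed, was not tested.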

How the data were processed

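The 2 libraries were deposited as raw counts of reads per gene. Per the file headers, the authors made these counts with featureCounts 2.1.1 in paired-end mode over exons, with no option recorded for strand, pair counting or multi-mapping reads, so mates count singly, strand is ignored and multi-mapping reads are left out. Per the submitters' processing notes, HISAT2 and SAMtools were also used, with no version named. How reads were aligned is not given in the sources used here, and coordinates are 1-based on the study's own assembly. The table held 41792653 reads in library B and 20047449 in library A.

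Counts were scaled with edgeR 4.0.16 TMM factors (R 4.3.3) over the whole table, 1.003 for library B and 0.997 for library A. RPKM was computed here from counts and exon length. Log2 ratios are library B over library A with a prior count of 2, for genes that reached 10 reads in either library, and wide means at least 2-fold. Ratio intervals are exact conditional binomial 95% intervals from counts halved to read pairs. Intervals and the limit of 3 reads for a count of 0 cover counting error only. Exon and intron lengths were read in transcript order, in Python 3.11.15. The procedures were tested on simulated data. Simulated exons were far longer than real ones, which all but excludes matches by chance, so the rate of false matches was not tested. Autosomes under 10 Mb are those whose last gene in the table ends before 10 Mb.

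IDs are given for the 2 contig genes with the largest and the 2 with the smallest ratio among those with at least 100 reads. By position are given the 5 highest genes, the 5 placed matches with the most inner exons (ties by higher RPKM), the highest gene of each contig with at least 10 genes, and genes without reads. Other genes were chosen after their values were seen. The members and lists were chosen with earlier results of these data known. No sequence is shown, as no sequence of this assembly was used here.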

Additional observations from a re-analysis of the deposited data

How the results depend on the processing

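Among 28 alternatives, 6 shifted a count by more than 1.5 times, 22 did not shift a result past its limits, and 0 turned a direction. The median level of contig genes ran from 9.33 RPKM (library A alone) to 10.5 RPKM (library B alone), and the median log2 ratio from 0.11 to 0.12 under 9 alternatives of scaling, filter, prior count, read pairs, and contigs or genes left out. Summing the reads of intron-alike pairs and leaving out genes with a partner from the counts were added after the data were seen. The number of contig genes higher in library B was 5 at 2-fold, 1 at 4-fold and 3 without genes that have a structural partner. For library A the number was 3, or 1 without such genes. Fewer genes qualify in each of these by construction. The number of contig genes with a placed partner was 15. It was 0 when the first and last exon also had to be equal, 74 when a run of 3 equal inner exon lengths sufficed and 40 with a run of 5. Runs were as frequent among placed genes, at 43.8% of contig genes against 44.2% of placed genes for runs of 3, and 29.9% against 27.5% for runs of 5. No paired analysis was possible because there is 1 library of each kind. Genes with few reads are limited by depth, and without replicates counting intervals are too narrow for differences between libraries.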
